A study of Mus musculus with 11 samples.

Results

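Runx2, Sp7, Dlx3, Dlx5, Dlx6, Msx2 and Atf4 are the 7 transcription factor genes described here, grouped for their roles in osteoblast differentiation. Each gene was given a window from 50 kb upstream of its start to 20 kb past its end, and the accessible chromatin regions that overlapped a window were its members. These windows held 100 of the 94963 regions in the list used here, with 44 at Runx2, 17 at Sp7, 19 at Dlx3, 9 at Dlx5, 10 at Dlx6, 3 at Msx2 and 3 at Atf4. The windows of Dlx5 and Dlx6 overlap on chromosome 6, and 5 regions were counted for both.

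Accessibility was measured by ATACseq, in which the Tn5 transposase inserts adapters where DNA is not wrapped in nucleosomes, in the conditionally immortalized mouse mesenchymal line MPC2, a single clone that proliferates at a lower temperature and mineralizes in osteogenic medium. The 11 libraries fell into 4 groups, which were undifferentiated MSCs given vehicle (DMSO, 3 libraries) or FG-4592 (3 libraries), and cultures labelled osteocyte given vehicle (2 libraries) or FG-4592 (3 libraries). FG-4592 (Roxadustat), which inhibits the HIF prolyl hydroxylases, was used at 50 uM for 48 hours, and the osteocyte cultures had been in osteogenic medium for 3 weeks. The list gave 1 pooled level per region over all libraries, so that no value below belongs to a group, no replicate error could be given, no difference between groups was tested, and the depth of each library was unknown.

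Runx2 is the runt-domain factor without which osteoblasts do not form, and Sp7 (osterix) is a zinc-finger factor that acts after it in the same lineage. The Dlx and Msx genes encode homeodomain proteins that pattern the limb and face and act on osteoblast genes, and Dlx5 and Dlx6 lie beside each other as 1 of the vertebrate Dlx pairs. Atf4 is a basic leucine zipper factor of the integrated stress response that is needed for amino acid supply and matrix production in mature osteoblasts. Accessible DNA at a gene start marks a promoter that factors can reach, and accessible DNA away from starts often marks enhancers.

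The sequences below show what was open, or was not listed as open, at the genes the results turn on. All were read from the GRCm38 assembly, which is the same assembly as mm10, except that of Atf4, which is the RefSeq promoter entry on GRCm38. RefSeq promoter entries were matched for 3 of the 7 genes (Runx2, Msx2 and Atf4). Capitals mark the letters of 8 motifs searched on both strands: the core of the hypoxia response element (HRE, ACGTG or GCGTG), AP-1 (TGAGTCA), RUNX (TGTGGT), a homeodomain core (TAATTA), the cAMP response element (CRE, TGACGTCA), the CEBP-ATF composite element (CARE, TGATGCAA), SP/KLF (GGGCGG) and TEAD (GGAATG). Sites that touch or overlap run together in capitals, and a match of letters is a description and not a bound site. The first 2 sequences lie upstream of gene starts. At the distal start of Runx2, the 250 bases of the start region that precede it (chr17:44814798-44815047, minus strand) held 1 AP-1 and 1 RUNX match. At Atf4 the 250 bases before the start (chr15:80254934-80255183, plus strand) held 3 HRE cores, and no region of the list covered them. The share of 32851 RefSeq promoters whose 250 upstream bases held the motif was 38.6% for the HRE core, 4.46% for AP-1 and 14.0% for RUNX. The Runx2 bases printed here precede the GENCODE start and are not its entry among these promoters. That entry (chr17:44814628-44814877) held no AP-1 match and 1 RUNX match, which lies outside the printed bases.
Runx2 distal start: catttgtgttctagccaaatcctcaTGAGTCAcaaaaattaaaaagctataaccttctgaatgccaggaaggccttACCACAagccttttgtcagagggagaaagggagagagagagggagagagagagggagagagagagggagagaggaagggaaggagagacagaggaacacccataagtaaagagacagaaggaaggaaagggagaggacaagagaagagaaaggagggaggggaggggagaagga
Atf4 start: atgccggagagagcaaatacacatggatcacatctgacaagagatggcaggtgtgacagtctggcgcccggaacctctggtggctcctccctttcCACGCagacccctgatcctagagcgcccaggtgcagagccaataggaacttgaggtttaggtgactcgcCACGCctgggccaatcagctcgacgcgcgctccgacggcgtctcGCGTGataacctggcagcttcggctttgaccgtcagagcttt

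The next 5 sequences are the central 200 bases, on the plus strand, of the strongest region away from any annotated start at 5 of the genes. That of Runx2 lies in an intron (chr17:44738140-44738339) and held an HRE core that runs into an SP/KLF match, and an AP-1 match. That of Sp7 lies upstream of the gene (chr15:102377371-102377570) and held 1 RUNX match and 1 HRE core. That of Dlx3 lies upstream (chr11:95089338-95089537) and held 1 homeodomain core, that of Dlx6 lies upstream (chr6:6827117-6827316) and held 2 RUNX matches, and that of Msx2 lies upstream, in an intron of the predicted gene Gm34022 (chr13:53514670-53514869) and held 2 AP-1 matches beside joined RUNX and TEAD matches.
Runx2 intron: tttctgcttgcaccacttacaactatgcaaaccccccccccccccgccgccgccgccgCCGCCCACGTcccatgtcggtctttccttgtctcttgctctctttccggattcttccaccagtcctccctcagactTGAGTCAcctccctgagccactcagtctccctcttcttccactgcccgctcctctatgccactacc
Sp7 upstream: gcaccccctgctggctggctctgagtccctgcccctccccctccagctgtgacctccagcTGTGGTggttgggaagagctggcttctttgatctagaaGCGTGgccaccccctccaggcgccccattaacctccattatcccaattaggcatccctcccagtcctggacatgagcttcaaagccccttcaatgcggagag
Dlx3 upstream: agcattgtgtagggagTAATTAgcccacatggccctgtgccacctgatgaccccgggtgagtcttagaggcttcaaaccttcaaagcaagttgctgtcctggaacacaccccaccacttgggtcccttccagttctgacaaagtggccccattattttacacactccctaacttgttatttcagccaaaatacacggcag
Dlx6 upstream: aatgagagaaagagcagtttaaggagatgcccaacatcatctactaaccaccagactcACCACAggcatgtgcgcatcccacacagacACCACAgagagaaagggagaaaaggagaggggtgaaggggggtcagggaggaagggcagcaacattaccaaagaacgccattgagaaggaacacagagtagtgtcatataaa
Msx2 upstream: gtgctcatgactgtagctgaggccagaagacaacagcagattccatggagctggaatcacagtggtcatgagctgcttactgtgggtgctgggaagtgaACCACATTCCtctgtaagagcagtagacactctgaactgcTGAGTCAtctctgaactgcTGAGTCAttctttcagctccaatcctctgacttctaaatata

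Marker genes were checked in the list as a whole. A region lay within 1000 bp of an annotated start for 8 of 8 mesenchyme and osteoblast markers, for 2 of 6 osteocyte markers (Dmp1 and Fgf23, but not Phex, Mepe, Sost or Pdpn) and for 5 of 14 markers of other cell types, where 64.1% of all protein-coding genes had one. The list pools all libraries, so these counts do not test the label of a group. Chromosomes differed in how many regions they held, with a median of 37.2 per Mb over the 19 autosomes. The chromosomes of the 7 genes held 58.5 per Mb for chromosome 11 (Dlx3), 47.0 for chromosome 17 (Runx2), 39.4 for chromosome 15 (Sp7 and Atf4), 36.2 for chromosome 6 (Dlx5 and Dlx6) and 28.7 for chromosome 13 (Msx2).

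To ask how much accessible chromatin surrounds each gene, regions per window were counted and set beside protein-coding genes of similar length (within 20%), with windows built the same way. Of the 7 genes, 5 held more regions than the median of their similar-length genes, where 46.8% of all protein-coding genes did, and 3 (Runx2, Sp7 and Dlx3) held more than 95% of them, where 4.11% of all protein-coding genes did. Msx2 and Atf4 were below their medians. Dlx3 held 19 regions against a median of 4, and 1895 of 1897 similar genes held fewer (99.9%). Sp7 held 17 against a median of 6, and 98.6% of 2265 similar genes held fewer. Runx2, by far the longest of the 7 at 318811 bp, held 44 against a median of 13, and 96.4% of 334 similar genes held fewer.

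Dlx5 held 9 regions and Dlx6 held 10, each against a median of 4, with 77.9% of 1492 and 84.7% of 1899 similar genes below them. Msx2 held 3 against a median of 4, with 40.1% of 2045 similar genes below it, and Atf4 held 3 against a median of 5, with 37.7% of 778 below it. Many short coding genes had no region in their windows. Among similar genes with a region at a start of their own, 5.83% held fewer regions than Msx2, while the shares below Runx2, Sp7 and Dlx3 were 95.6%, 97.8% and 99.8%. The share below Atf4 was 7.80%, in a set whose genes all hold the start region that Atf4 lacks, which lowers the share by construction. Against similar genes of the same chromosome, a comparison added after the data had been seen, the median rose from 4 to 8 at Dlx3 (19 regions, with 100% of 159 genes below it) and from 5 to 8 at Atf4 (3 regions, with 7.69% of 26 genes below it). In that comparison 91.7% of 12 genes held fewer regions than Runx2 and 56.6% of 76 genes fewer than Msx2.

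**Figure D1:**
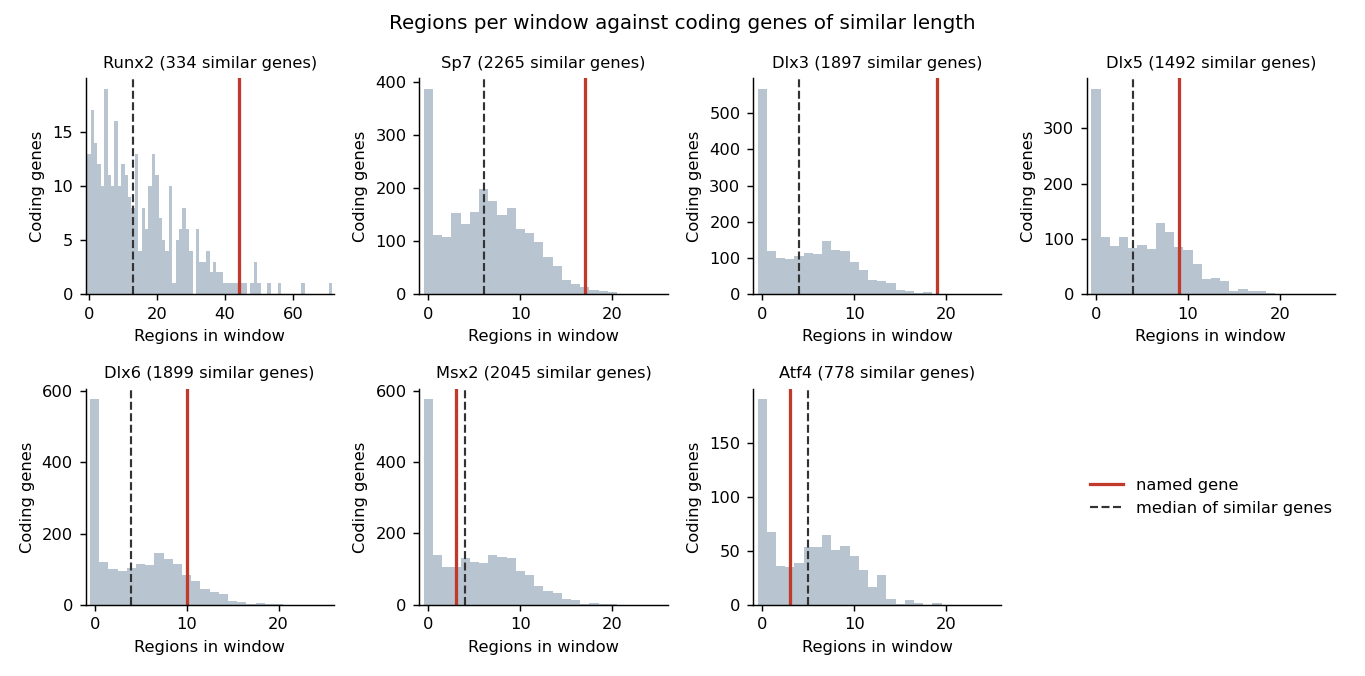
Regions per window (x axis) against the number of protein-coding genes of similar length (y axis) for each of the 7 genes; the red line is the named gene and the dashed line the median of the similar genes. The red line lies right of the dashed line for 5 genes, at 44 regions for Runx2, 17 for Sp7 and 19 for Dlx3, and left of it for Msx2 and Atf4, with 3 regions each.

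Summed level gave a similar order, with exceptions. A level is a region's average log2 CPM, as read from the values of the list (CPM is Tn5 cuts scaled to library size), and 2 to the power of the level was summed over each window. The sum at Runx2 was 406 CPM against a median of 100 CPM at similar genes (97.0% lower), and at Sp7 it was 496 CPM against 78.5 CPM (99.6% lower). A single region at the start of Sp1, the neighbour of Sp7, gave 241 CPM of that sum. Dlx3, with more regions than Sp7, summed to 181 CPM against 40.0 CPM, and 84.4% of similar genes were lower, a share that ran from 69.9% (similar genes with a region at a start) to 98.3% (without regions at starts of other coding genes) over the alternatives. Dlx5 summed to 104 CPM and Dlx6 to 140 CPM, of which each counts the start region of the other. Msx2 reached 14.6 CPM against a median of 43.5 CPM, and Atf4 23.8 CPM against 46.1 CPM. These directions were not stable. Without regions at starts of other coding genes 51.7% of similar genes were lower than Msx2 and 57.8% lower than Atf4, and among similar genes with a region at a start of their own 41.7% were lower than Dlx5.

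Starts came next, since a region at the start shows that the promoter itself was accessible. Of the 7 genes, 6 had a region within 1000 bp of an annotated start, where 64.1% of all protein-coding genes did, and Atf4 had none. Together the 6 genes had 10 such regions. On the scale of CPM per kb of region width, which allows regions of unequal width to be compared, the strongest start region was 31.0 at Dlx5, 24.2 at Runx2, 23.6 at Dlx3, 15.9 at Dlx6, 14.8 at Sp7 and 13.4 at Msx2. The highest was 2.32 times the lowest, and all of the regions at starts in the list had a median of 17.1. The list gave no spread over libraries, and whether neighbours in this order differ was not tested.

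CpG-rich starts are often open in many cell types, so the base composition of each gene start was set beside these values. Where a gene has several annotated starts, only the most upstream one was scored. A start was called CpG-rich when the bases within 500 bp of it held at least 55% G or C with an observed over expected CpG ratio of at least 0.6. Dlx3, Dlx5, Dlx6 and Atf4 had CpG-rich starts, as did 8406 of all 21938 protein-coding genes. Those of Runx2 (45.2% G or C, ratio 0.16) and Sp7 (50.1%, ratio 0.30) missed both limits, Msx2 (52.8%, ratio 0.67) missed that of G and C, and all of these starts had a region. At Runx2 the start scored was the distal one. The widest region at its proximal starts (chr17:44735471-44736686) held 67.8% G or C with a ratio of 0.86 over its whole width. Of all protein-coding genes with a CpG-rich start, 91.7% had a region at a start, and Atf4 was among the rest.

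Runx2 is transcribed from distal and proximal promoters, which give protein isoforms with different amino ends, and both were covered. GENCODE annotates 11 Runx2 starts on the minus strand of chromosome 17, of which 5 form a distal group (chr17:44814226-44814797) and 6 a proximal group (chr17:44734693-44736648). The distal group lay under 1 region of 1371 bp (chr17:44814103-44815473) that reached 5.05 log2 CPM and 24.2 CPM per kb. The proximal group had 3 regions. The widest of them (chr17:44735471-44736686, 1216 bp) reached 4.79 log2 CPM and 22.8 CPM per kb, and it also covered a start of the antisense RNA gene Runx2os1. The other two were narrower, with 2.94 log2 CPM and 20.6 CPM per kb over 372 bp (chr17:44734434-44734805), and 2.21 log2 CPM and 20.2 CPM per kb over 229 bp (chr17:44733952-44734180). Per kb all 4 lay above the median of regions at starts.

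Most of the Runx2 regions lay inside the gene. By midpoint 41 of 44 were in the gene body, against a median of 10 at similar genes (97.3% of which held fewer), 1 was upstream and 2 were past the end. Of similar genes 28.1% held fewer regions upstream than the 1 of Runx2, which was weak, with 0.51 log2 CPM (chr17:44833196-44833461). Between the distal and proximal starts, which are 78149 bp apart, there were 10 regions, 9 of them away from any start with a median of 8.40 CPM per kb. From the proximal starts to the end of the gene there were 27, of which 26 were away from starts with a median of 9.98 CPM per kb.

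The strongest Runx2 region away from starts was intronic and lay close to the proximal promoter (chr17:44737727-44738752, 1026 bp). The level of this region was 5.10 log2 CPM and 33.3 CPM per kb. Of similar genes 88.9% had a lower level, or none, at their own strongest region away from starts. It exceeded both Runx2 promoters on the per kb scale, and its central bases are the Runx2 intron sequence printed above. The widest region of the window was also intronic (chr17:44520207-44521633, 1427 bp), with 3.92 log2 CPM and 10.6 CPM per kb. Starts of other genes lie inside Runx2 too. The region at the start of Supt3, a gene for a subunit of the SAGA coactivator complex, was the highest of the window (chr17:44776686-44777837, 5.55 log2 CPM, 40.6 CPM per kb), and that at the antisense gene Runx2os2 had 4.46 log2 CPM and 19.9 CPM per kb.

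The strongest region in the Sp7 window away from starts exceeded the Sp7 start region in level. The start region (chr15:102366124-102367251, 1128 bp) reached 4.06 log2 CPM and 14.8 CPM per kb, above 44.7% of all regions at starts per kb. The region 10288 bp upstream (chr15:102376554-102378387, 1834 bp, intergenic) was both the widest of the window and the strongest away from starts, with 6.05 log2 CPM and 36.2 CPM per kb. Of similar genes 98.98% had a lower level, or none, at their own strongest region away from starts. Its central bases are the Sp7 upstream sequence printed above.

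More regions of the Sp7 window exceeded its start region in level. A region 32504 bp upstream (chr15:102399172-102400200) had 5.01 log2 CPM and 31.3 CPM per kb, a region in the intron (chr15:102362657-102363567) had 4.59 log2 CPM and 26.5 CPM per kb, and a region just past the gene end, in an exon of the predicted gene Gm36246 (chr15:102354978-102356496), had 5.23 log2 CPM and 24.7 CPM per kb. Upstream regions numbered 11 against a median of 3. The most upstream promoter in the window, that of Sp1 (chr15:102405218-102406901), had 7.91 log2 CPM and 143 CPM per kb, above 99.9% of regions at starts. Without regions at the starts of other protein-coding genes Sp7 kept 15 regions, more than 99.5% of similar genes.

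Dlx3 had many regions of moderate level upstream of a compact gene. The start region (chr11:95119942-95120584, 643 bp) had 3.93 log2 CPM and 23.6 CPM per kb, and a second region within 1000 bp (chr11:95120759-95121021, 263 bp) had 1.84 log2 CPM and 13.6 CPM per kb. Upstream lay 14 regions, against a median of 2 at similar genes. They include 2 at starts of the neighbouring gene Itga3, and the region farthest from Dlx3 lies in an Itga3 intron. Of the 14 regions, 8 were between 10 and 30 kb upstream, with levels from 1.72 to 3.46 log2 CPM and 11.4 to 24.2 CPM per kb. Each was above the 8.90 CPM per kb that was the median of all regions away from starts. The strongest and widest region away from starts lay 30682 bp upstream (chr11:95088815-95090060, 1246 bp), with 5.14 log2 CPM and 28.3 CPM per kb, and 95.8% of similar genes were lower at their strongest such region. Per kb the highest was just past the gene (chr11:95126250-95127019), with 4.47 log2 CPM and 28.9 CPM per kb. Counting only regions of at least 500 bp left Dlx3 with 7 regions, more than 91.6% of similar genes, and Sp7 with more than 92.8% of them, while Runx2 stayed at 95.8%.

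Dlx5 and Dlx6 face each other with their ends, on opposite strands, and their starts are 18751 bp apart. Both starts were covered by wide regions. That of Dlx5 (chr6:6881272-6882602, 1331 bp) had 5.37 log2 CPM and 31.0 CPM per kb, the highest start value of the 7 genes, and that of Dlx6 (chr6:6862570-6864346, 1777 bp) had 4.82 log2 CPM and 15.9 CPM per kb and also covered starts of the antisense genes Dlx6os1 and Dlx6os2. The Dlx6 start region was the widest in both windows. The 9236 bp between the ends of the genes held 2 regions, both near the bottom of the list. One at an annotated Dlx6os1 start (chr6:6870319-6870604) had 0.50 log2 CPM and 4.95 CPM per kb, and the other (chr6:6874924-6875123) had 0.41 log2 CPM and 6.64 CPM per kb.

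Outside the pair, the strongest region away from starts on the Dlx6 side lay 36118 bp upstream of Dlx6, in an intron of Dlx6os1 (chr6:6826890-6827542), with 4.14 log2 CPM and 27.0 CPM per kb, and 84.8% of similar genes were lower at their strongest such region. Close to it was the region at a Dlx6os1 start (chr6:6829920-6831073), with 5.12 log2 CPM and 30.2 CPM per kb. On the Dlx5 side the strongest (chr6:6914764-6915802, 33198 bp upstream of Dlx5) had 3.49 log2 CPM but 10.8 CPM per kb, and the highest per kb (chr6:6885004-6885337, 3085 bp upstream) had 2.25 log2 CPM and 14.2 CPM per kb. The Dlx6 side thus held the stronger region per kb, a difference that was not tested.

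Msx2 had 1 region at its start and 2 away from starts, the latter equal to the median of similar genes. The start region (chr13:53472201-53473027, 827 bp) had 3.47 log2 CPM and 13.4 CPM per kb, the lowest start value of the 6 genes with a start region, each taken at its strongest. It lay wholly inside the gene, 47 bp from the start. The other two regions were narrow and weak, with 1.00 log2 CPM at 41695 bp upstream (chr13:53514644-53514894, 7.98 CPM per kb, where 39.2% of similar genes were lower at their strongest such region) and 0.60 log2 CPM past the end (chr13:53460662-53460931, 5.60 CPM per kb). The first of these is the Msx2 upstream sequence printed above, and it held AP-1 letters at 2 places although its level exceeded that of 21.1% of regions away from starts.

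Atf4 was the gene without a region at its start. The nearest region of the list was 22574 bp away, and the stretch between neighbouring regions (chr15:80226147 to chr15:80277758) was 51610 bp long, longer than 91.6% of the 94942 such stretches. It held the starts of 4 protein-coding genes, Atf4, Mief1, Rps19bp1 and AC140267.1, of which the first 3 are CpG-rich. Stretches with at least 3 CpG-rich coding starts and no region numbered 20 in the whole list. The 3 regions of the Atf4 window were all upstream, with 3.73 log2 CPM and 15.6 CPM per kb at 35568 bp (chr15:80219191-80220042), 3.16 log2 CPM and 10.2 CPM per kb at 29474 bp (chr15:80225273-80226147, the widest at 875 bp) and 0.63 log2 CPM at 43678 bp in an exon of Mgat3. A missing region shows that the list holds none there, and whether the chromatin was closed was not tested.

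**Figure D2:**
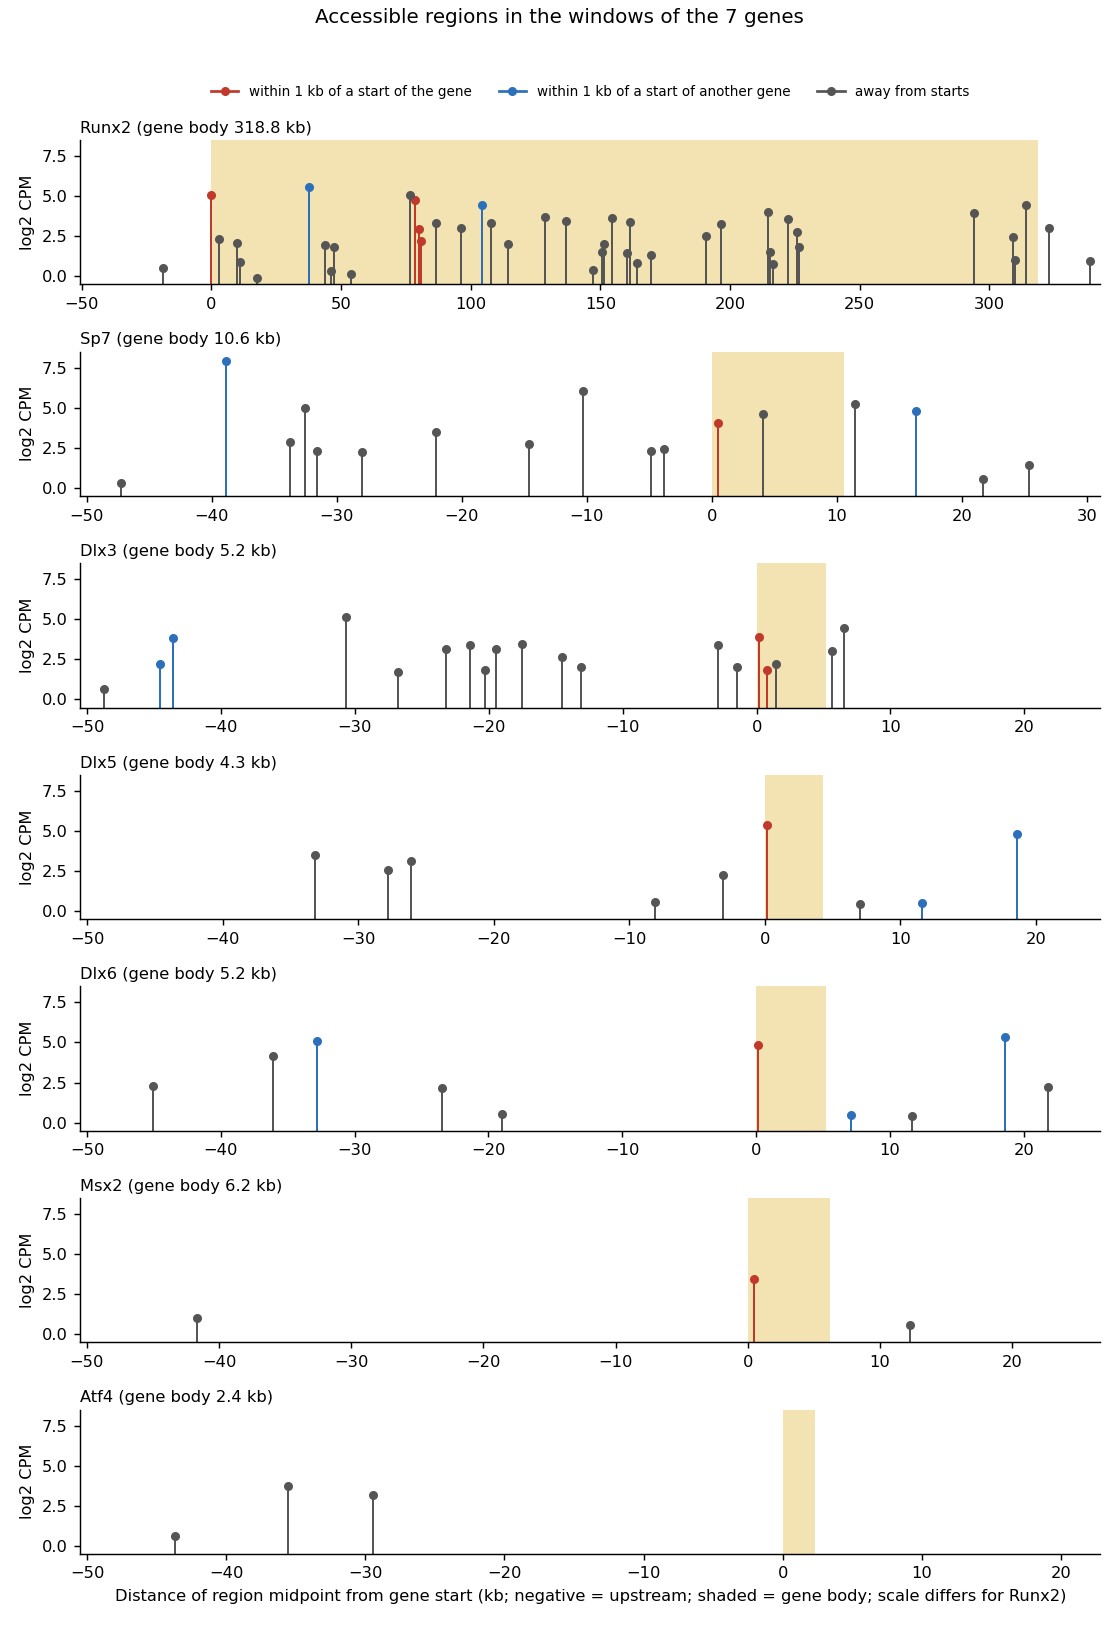
Level of each region (y axis, log2 CPM) against the distance of its midpoint from the gene start (x axis, kb, with upstream negative) for the 7 genes, with the gene body shaded; colours separate regions at a start of the gene, at a start of another gene, and away from starts. Runx2 holds 41 of its 44 regions in the gene body, Dlx3 holds 14 of 19 upstream, and Atf4 has no region at its start.

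The regions of the 7 genes were then compared with the whole list by place and level. Of the 100 regions 18 (18.0%, 95% Wilson interval 11.7% to 26.7%) lay within 1000 bp of a start of any gene, where 22.7% of the whole list did. A further 3 overlapped exons, 45 were intronic and 34 intergenic. The list shares of exon, intron and intergenic regions were not determined, so these counts are description only. Their median width was 458.5 bp against 460 bp for the list, and their median level per width was 12.1 CPM per kb against 9.52 CPM per kb. That was 1.27 times the list median, a ratio that ran from 1.08 (regions of at least 500 bp) to 1.49 (without Runx2) over the alternatives. At starts the medians were 20.4 CPM per kb for the 18 regions and 17.1 for the list, and away from starts they were 11.2 for the 82 regions and 8.90 for the list. The genes differed among themselves. Away from starts the median was 16.4 CPM per kb at Sp7 (14 regions), 15.5 at Dlx3 (15), 9.43 at Runx2 (38) and 9.35 at Dlx5 and Dlx6 together (10). At Msx2 the 2 such regions had 7.98 and 5.60 CPM per kb, and at Atf4 the 3 had 15.6, 10.2 and 7.13. Sp7 and Dlx3 thus lay above the 8.90 of the list, Runx2, Dlx5 and Dlx6 close to it, and both Msx2 regions below it. No test was run, because regions of a gene share their neighbourhood and are not replicates.

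**Figure D3:**
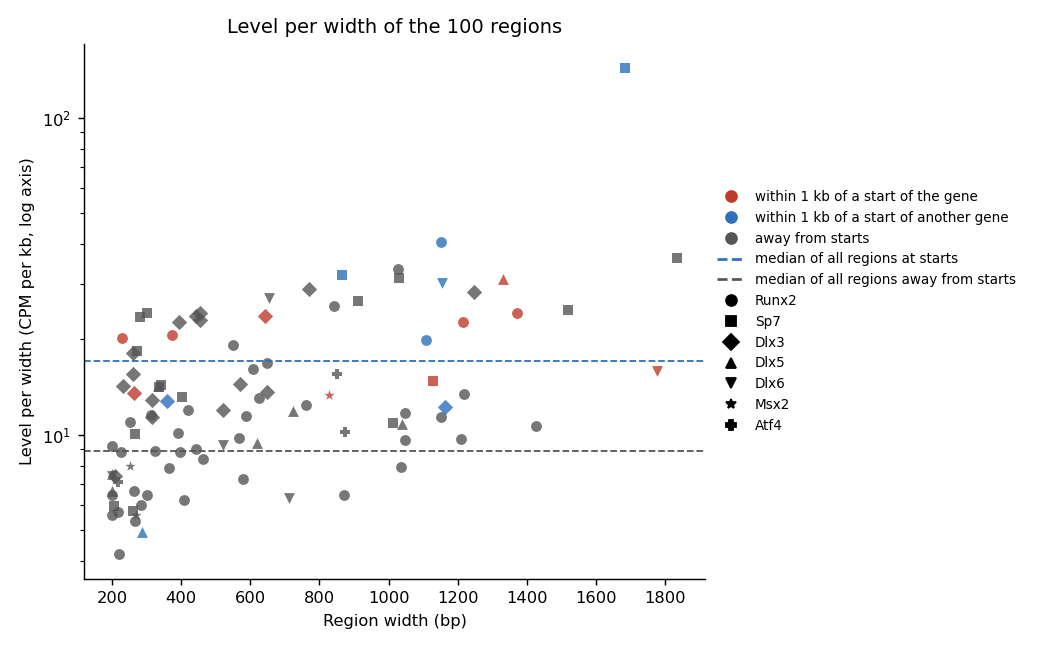
Level per width (y axis, CPM per kb, log axis) against width (x axis, bp) of the 100 regions, with the symbol giving the gene and the colour the place; dashed lines are the medians of all regions at starts (17.1) and away from starts (8.90). The Sp1 start region in the Sp7 window is the highest at 143 CPM per kb, and regions of Sp7 and Dlx3 sit mostly above the lower line.

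Motif letters in the central 200 bp were then counted, because members of these families recognise such letters themselves. RUNX letters were in 21 of the 100 regions against 22.2% of the list, homeodomain letters in 5 against 3.32%, SP/KLF letters in 15 against 12.2%, TEAD letters in 15 against 14%, and HRE cores in 26 against 24.2%. These counts were near the share in the list, and each 95% Wilson interval held it. CRE letters, which factors of the Atf family can bind, were in 0 of 100 against 0.372% of the list (3 counts would allow a share of up to 3%, and the Wilson interval reaches 3.70%), and CARE letters were also in 0 of 100 against 0.729%. Over whole regions CRE letters were in 2 and CARE letters in 3, the latter all at Runx2, against 1.24% and 1.79% of list regions of the same width.

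AP-1 letters, the sites of Fos and Jun dimers, were in 17 of the 100 regions (95% Wilson interval 10.9% to 25.5%) against 12.1% of the list. All 17 lay away from starts, which made 20.7% of the 82 such regions (interval 13.4% to 30.7%) against 13.8% of such regions in the list, so that both list shares were within the intervals. Runx2 held 11 of the 17, Dlx6 held 2, and Sp7, Dlx3, Dlx5 and Msx2 held 1 each. Without Runx2 the share was 10.7% of all regions and 13.6% of those away from starts. SP/KLF letters away from starts were in 10 of 82 regions (12.2%) against 5.44% of such regions in the list, with a Wilson interval that starts at 6.76% and so leaves out the list share. Sp7, itself a member of the SP family, held 5 of these 10, Dlx3 held 3 and Runx2 held 2. Without Sp7, a setting added after the data had been seen, 5 of 68 remained (7.35%). The interval treats regions as independent, which regions of a gene are not, so no difference is read from these shares.

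**Figure D4:**
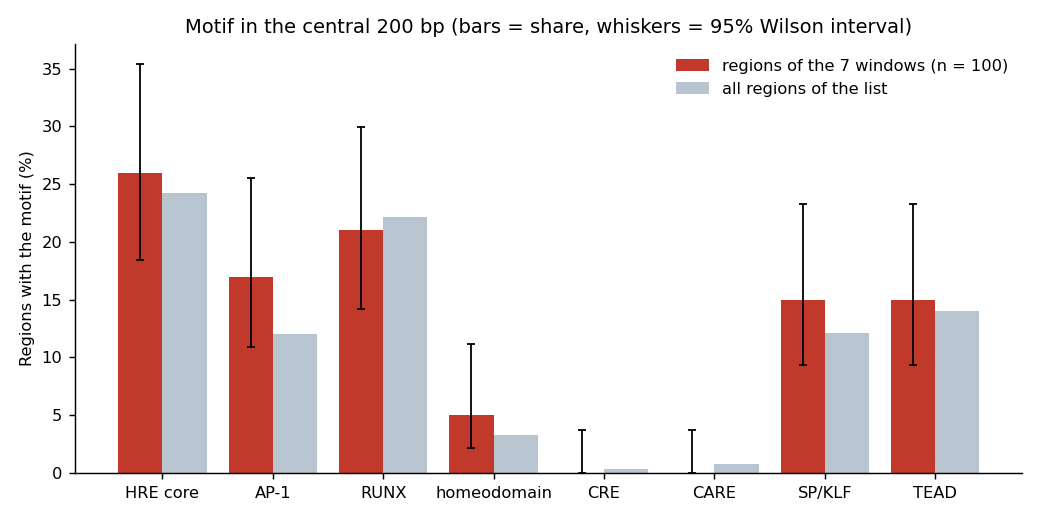
Share of regions (y axis, percent) whose central 200 bp hold the letters of each motif, for the 100 regions of the 7 windows (red, with 95% Wilson intervals) and for the whole list (grey). The largest gap is at AP-1, with 17% against 12.1%, and every interval reaches the grey bar.

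Other genes of these pathways were listed to place the 7 genes among regulators of the same and of other lineages. Relatives and partners numbered 16, of which 15 had a region at a start and 13 held more regions than the median of similar genes, with a median percentile of 77.2. In that list Runx1, the blood-forming runt factor, held 44 regions (98.7% of similar genes below it) on chromosome 16, which had the most regions per Mb of the autosomes at 59.6. Sp1 held 18 regions (98.0%), part of them shared with Sp7. Msx1, the nearest relative of Msx2, held 2 regions (31.1%), also below its median of 5. Of 20 other osteoblast regulators, all 20 had a region at a start and 15 were above the median, with a median percentile of 70.1, where 64.1% of all protein-coding genes had a region at a start (91.7% of those with CpG-rich starts, which 16 of the 20 had) and 46.8% were above the median. The highest was Cebpb, a leucine zipper factor, with 15 regions (99.2%), and Sox9, the cartilage regulator, had 13 (94.9%).

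Regulators of other lineages were listed for comparison, and the difference between lists was not tested. Of 20 such genes 6 had CpG-rich starts, against 16 of the 20 other osteoblast regulators, 10 of the 16 relatives and 4 of the 7 genes. Over all protein-coding genes 8406 of 21938 had one. The part of these differences in the start counts was not tested. A region lay at a start for 10 of the 20, and 5 were above the median, with a median percentile of 37.1 and none above 95, beside the 64.1%, 46.8% and 4.11% of all protein-coding genes. The muscle regulators had 0 of 4 starts with a region, and Myf5 and Myf6 had no region in their windows. Starts with a region were 4 of 6 for nerve, 4 of 5 for blood and 2 of 5 for endoderm. For the 7 genes the median percentile was 84.7. By that share Dlx5, Msx2 and Atf4 lay within the range of the other lineages (0 to 82.0), and by number of regions Dlx6 did too (0 to 16).

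**Figure D5:**
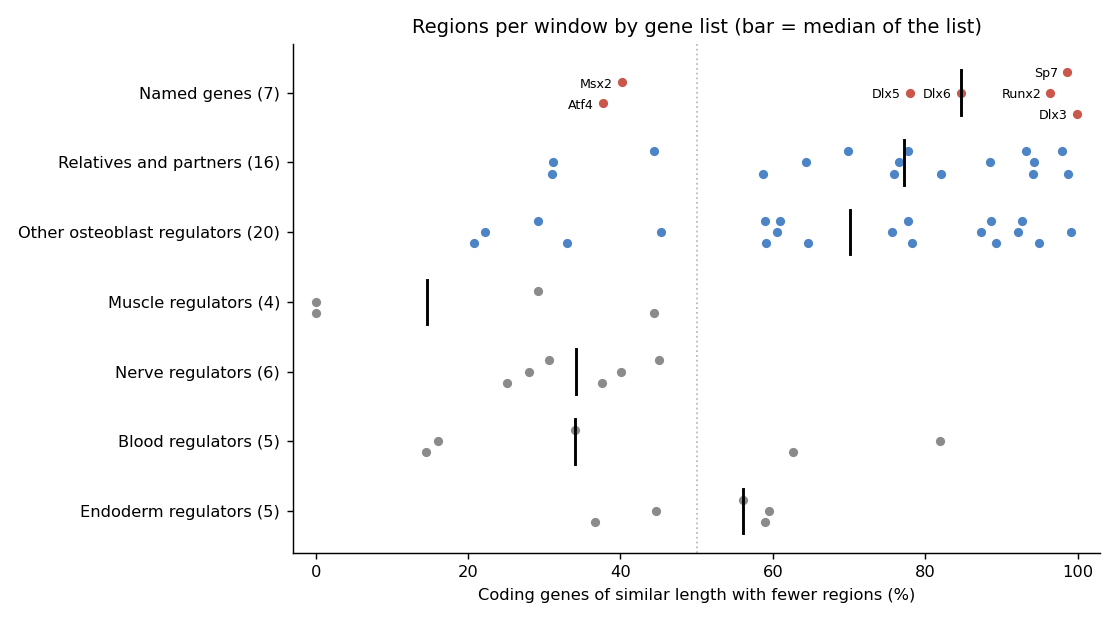
Share of protein-coding genes of similar length with fewer regions (x axis, percent) for the 7 genes (red), the lists of relatives and other osteoblast regulators (blue) and regulators of other lineages (grey); each point is a gene and each bar the median of its list. Sp7, Runx2 and Dlx3 lie above 95, Msx2 and Atf4 at 40.1 and 37.7, and no gene of the other lineages lies above 82.0.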

How the data were processed

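Chromatin accessibility was measured by ATACseq in 11 MPC2 libraries of 4 groups taken from the sample labels. The authors aligned reads to mm10 with Bowtie2, removed duplicates with Picard (2.17.8), called peaks with MACS2 (2.2.7.1), merged the peaks of several samples, removed blacklisted regions, counted Tn5 cuts per region and normalized them by TMM in edgeR (3.24.3), as named in the methods and the submitters' processing notes. A Tn5 offset shift was not given in the sources used here. The deposited list holds 94963 regions with 1 value each, read as average log2 CPM over libraries, because 460 values lie below 0 and 2 to the power of the value sums to 1012761. Since peaks were merged across samples, the width of a region can depend on how many libraries had a peak there.

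Genes, transcripts and exons came from GENCODE release M21, and bases from the GRCm38 assembly, on which 0 regions ran past a chromosome end. Regions within 1000 bp of an annotated start were called start regions. Of the regions in each window, the text names those at a start of the gene, the highest away from starts by level and by CPM per kb, the widest, and those between Dlx5 and Dlx6. Sp7 regions at 32504 bp upstream, in the intron and past the end were named after their values were seen. So were the single Runx2 upstream region, the Supt3, Runx2os2, Sp1, Dlx6os1 and Itga3 start regions and the Itga3 intron region. The same holds for the Dlx3 group 10 to 30 kb upstream and the remaining Msx2 and Atf4 regions. In the lists it holds for Runx1, Sp1, Msx1, Cebpb and Sox9. The 7 genes and all lists were chosen with earlier results of these data known. No test was run, since the list holds no value per library. Intervals are 95% Wilson intervals and cover counting error only. Window counts and the motif search were tested on simulated data. Python 3.11.15, numpy 2.4.6, scipy 1.17.1 and matplotlib 3.10.9 were used. Alternatives changed window size, region width and level, merging, the genes compared, the start distance and the motif window, and left out each gene in turn.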

Additional observations from a re-analysis of the deposited data

How the results depend on the processing

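No paired analysis was possible because no library has a value of its own in the list used here. Of 156 alternative values for the totals, shares and medians, 144 stayed near the reported value (counts and medians within 1.5 times, shares within the 95% Wilson interval), and 12 moved. Many of the 156 could not move under this rule. Leaving out a gene turned the 5 genes above their median into 4 or 5, and CRE and CARE shares of 0 stayed 0. The limit of 1.5 times also exceeds the ratio of 1.27 between the median level per kb of the 7 genes and that of the list. The 144 is therefore no measure of robustness. Of 254 further values, nearly all for single genes, 149 stayed and 105 moved. The total of 100 regions became 49 with regions of at least 500 bp and 56 without Runx2. Over whole regions in place of the central 200 bp, which searches more bases, the shares were 53% for the HRE core, 27% for AP-1, 42% for RUNX, 12% for homeodomain and 33% for TEAD, against 48.1%, 22.0%, 43.0%, 9.22% and 32.2% of list regions of the same width. In the central 100 bp they were 13% for the HRE core, 11% for RUNX, 1% for homeodomain and 8% for TEAD, against 13.3%, 12.4%, 1.62% and 7.35% of the list. Without Runx2 the AP-1 share was 10.7%.

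Over 14 alternatives the share of similar genes with fewer regions ranged from 91.7% to 97.6% for Runx2, 92.8% to 99.5% for Sp7, 91.6% to 100% for Dlx3, 62.4% to 89.3% for Dlx5, 72.5% to 93.6% for Dlx6, 5.83% to 56.6% for Msx2 and 0% to 48.2% for Atf4, so that the share passed 50% at Msx2 and not at Atf4. By summed CPM the share was 4.66% to 55.5% for Msx2, 0% to 57.8% for Atf4, 69.9% to 98.3% for Dlx3 and 41.7% to 86.5% for Dlx5. It was 83.3% to 98.1% for Runx2, with the lowest against 12 genes of its chromosome, 92.4% to 100% for Sp7 and 58.0% to 93.3% for Dlx6. With 20 kb upstream Atf4 had no region. The list cannot show where a level came from among the libraries.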
